A study of Homo sapiens with 6 samples.

Results

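The lysyl oxidase family consists of LOX, LOXL1, LOXL2, LOXL3 and LOXL4. They were selected by gene symbol, without regard to their values, and make up 5 of the 21314 entries of the deposited RNA-seq tables. The RNA came from ARPE-19, an established human retinal pigment epithelial (RPE) cell line kept in DMEM with 10% fetal bovine serum. The cells were transduced, at an MOI (viral units per cell) of 10, with control lentivirus (control group, 3 libraries) or with a lentivirus overexpressing PDZK1, a membrane scaffold protein (PDZK1 group, 3 libraries). Puromycin at 4 µg/ml was added 48 h later to select stable cells, and both groups were then held in 37.5 mM glucose for 48 h before RNA extraction. The controls thus share the high glucose, the viral transduction and the puromycin, and the question is what PDZK1 overexpression changes on that background. Nothing in the labels states whether libraries of a group came from separate cultures, so p-values measure only the spread between these libraries, which may be technical.

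Lysyl oxidases are secreted copper enzymes. They oxidise lysine side chains of collagen and elastin to aldehydes, which then react with neighbouring chains to form the covalent crosslinks that make matrix insoluble. LOX and LOXL1 carry a propeptide that is cut off outside the cell, whereas LOXL2, LOXL3 and LOXL4 carry repeated scavenger receptor cysteine-rich domains ahead of the same catalytic domain. The RPE rests on Bruch's membrane, a sheet of collagen layers around an elastic layer, which it helps to build.

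Total counts lay between 27970618 and 32804567 per library. The first principal component of the libraries (33.8% of the variance) separated the groups, and on the second (21.1%) control replicate 3 lay at -30.0 while control replicates 1 and 2 lay at 14.5 and 18.8. Within each group the replicates varied beyond counting noise (chi-square of 6.62 to 18.4 per degree of freedom). PDZK1 had 19, 18 and 23 counts in the controls and 3020, 2541 and 2828 after its overexpression, matching the labels (log2 fold change 7.03, edgeR adjusted p = 8.16e-09). Of 16 RPE markers, 12 were abundant enough to test, and 0 passed the threshold in edgeR, DESeq2 or limma-voom (1 had an unadjusted p under 0.05 in edgeR). Their summed FPKM ran from 1031 to 1185 in the controls and from 1082 to 1223 with PDZK1, carried mostly by keratins, while RPE65, TYR and TTR had at most 3 counts in every library. LRAT, with 31 to 78 counts, and SERPINF1, with 12 to 40, were lower in every PDZK1 library than in every control. Their log2 fold changes were -0.82 and -0.83 (edgeR unadjusted p = 0.0251 and 0.0525), without passing the threshold. The CPM of the other tested RPE markers overlapped between the groups. BEST1 had 11459 counts in PDZK1 replicate 1 and between 124 and 181 in the other libraries. The defining markers THY1 and DPT (fibroblasts), CDH5 (endothelium), PTPRC (immune cells) and CRX and RCVRN (photoreceptors) stayed at or under 3 counts everywhere, but other markers on these lists were present. PDGFRB (fibroblasts) had 1988 to 2685 counts per library, with overlapping CPM (log2 fold change 0.20, edgeR adjusted p = 0.155). KDR (endothelium), with 107 to 155 counts, was lower in every PDZK1 library than in every control (-0.47, adjusted p = 0.111). CD68 (immune cells, and lysosomes of other cells), with 3948 to 4517 counts, was likewise lower without overlap (-0.22, adjusted p = 0.134) and was called lower by DESeq2. The summed FPKM of the 4 listed markers ran from 10.5 to 12.5 in the controls and from 12.5 to 13.7 with PDZK1 for fibroblasts, from 0.802 to 0.808 and from 0.595 to 0.656 for endothelium, and from 70.8 to 85.8 and from 66.6 to 68.3 for immune cells. The part of these differences in the results on the members was not tested.

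The catalytic domain that the family shares is visible in the coding sequence. The stretch below spans the histidine codons that hold the copper ion and is shown because it marks the members as 1 enzyme family. It covers 42 coding bases from the GENCODE release 29 transcripts, 5′ to 3′, and capitals mark the 27 bases identical in the 4 members printed (LOXL2 was left out of this comparison). The stretch was located in each member by a fixed base pattern, so part of the identity between members was set in advance.
LOX: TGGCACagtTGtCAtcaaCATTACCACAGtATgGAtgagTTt
LOXL1: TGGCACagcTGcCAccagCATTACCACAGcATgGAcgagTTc
LOXL3: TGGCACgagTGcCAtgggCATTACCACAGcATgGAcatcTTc
LOXL4: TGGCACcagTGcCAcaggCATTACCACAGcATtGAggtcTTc
Counted from the start codon, these are bases 862 to 903 of LOX, 1333 to 1374 of LOXL1, 1807 to 1848 of LOXL3 and 1819 to 1860 of LOXL4. LOXL1 was identical to LOX at 35 of the 42 bases, LOXL3 at 29 and LOXL4 at 28. The coding lengths were 1254 bases for LOX, 1725 for LOXL1, 2325 for LOXL2, 2262 for LOXL3 and 2271 for LOXL4.

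The members are related but not near-identical, which bears on whether reads could be shared between them. Identity over aligned coding bases ranged from 64.2% to 71.1% in the 10 pairs. The longest run of identical coding bases in a pair was between 12 and 26 bases. In LOX and LOXL1, the pair that carries propeptides, it was 22 bases, shown in capitals below with 12 bases on either side. The run lies near the start of the coding sequence, at bases 130 to 175 of LOX and 121 to 166 of LOXL1 with its flanks.
LOX: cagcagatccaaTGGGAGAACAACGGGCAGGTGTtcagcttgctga
LOXL1: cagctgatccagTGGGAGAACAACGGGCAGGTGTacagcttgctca
No annotated pseudogene carries a numbered name derived from any of the 5 members (0 each).

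The family was represented in these cells by 3 abundant and 2 scarce transcripts. The deposited FPKM, which scale reads by transcript length, allow levels of different genes to be set side by side. In the controls LOX had a mean of 80.9 ± 3.50 FPKM, LOXL2 79.4 ± 4.28 and LOXL1 27.9 ± 2.04 (SD, n = 3 each). In FPKM of single libraries, LOXL3 ran from 0.743 to 1.84 and LOXL4 from 0.572 to 0.834 over all 6. LOX ranked 858th by mean FPKM among the 13645 genes tested (top 6.29%), LOXL2 922nd and LOXL1 2758th, whereas LOXL3 and LOXL4 ranked 11572nd and 11887th.

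The distance between LOX and LOXL2 depended on the length scale. LOX exceeded LOXL2 in FPKM in 4 of 6 libraries, 1 of 3 controls and 3 of 3 PDZK1 libraries, and on that scale these neighbours did not differ beyond their spread (mean log2 ratio 0.097, SD 0.11). By counts per kilobase of merged exon LOX was above LOXL2 in 6 of 6 libraries (mean log2 ratio 0.53, SD 0.10). LOXL2 exceeded LOXL1, and LOXL1 exceeded LOXL3, in 6 of 6 libraries. LOXL3 exceeded LOXL4 in 5 of 6 libraries by FPKM, but by counts per kilobase LOXL4 was the higher of the pair in 3 of 6, and their order is open.

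The summed FPKM of the family was lower with PDZK1. It was 188, 188 and 193 FPKM in the controls and 161, 168 and 155 FPKM with PDZK1, with no overlap. LOX made up 42.6% ± 1.71 of the sum in the controls and 44.2% ± 0.485 with PDZK1, LOXL2 41.8% ± 1.83 and 39.4% ± 1.12, and LOXL1 14.7% ± 1.27 and 15.3% ± 1.15 (SD, n = 3 each). LOXL3 contributed at most 1.14% and LOXL4 at most 0.529% of the sum in any library.

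**Figure D1:**
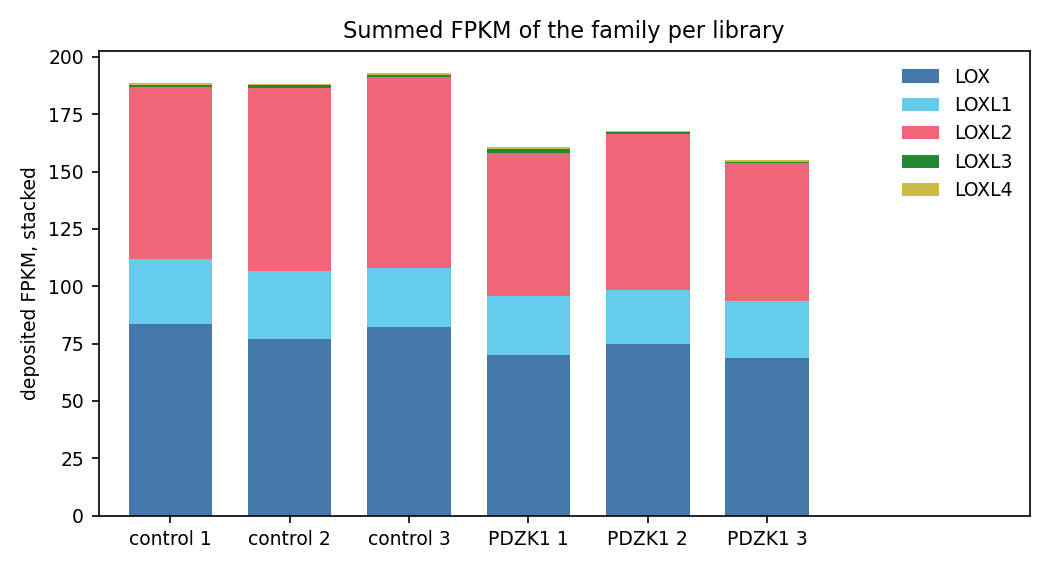
Deposited FPKM of the 5 members stacked for each of the 6 libraries (y axis, FPKM; x axis, library). The control columns reach 188 to 193 FPKM and the PDZK1 columns 155 to 168 FPKM, and LOX, LOXL2 and LOXL1 fill nearly the whole height of each.

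LOXL2 and LOX were lower in the PDZK1 group and passed the test, LOXL1 was lower by a similar proportion to LOX without passing it, and LOXL3 and LOXL4 showed no detectable difference. The test was the edgeR quasi-likelihood test over all 13645 genes, with an adjusted p under 0.05 as the threshold. With 2 of 5 members called, both lower, the background was 3.83% of all genes called, 2.41% lower and 1.41% higher. The CPM (counts relative to the TMM-scaled library size) of 3 members did not overlap between the groups, all lower with PDZK1, against 23.9% of all genes tested that did not overlap and 12.3% that did so on the lower side.

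**Figure D2:**
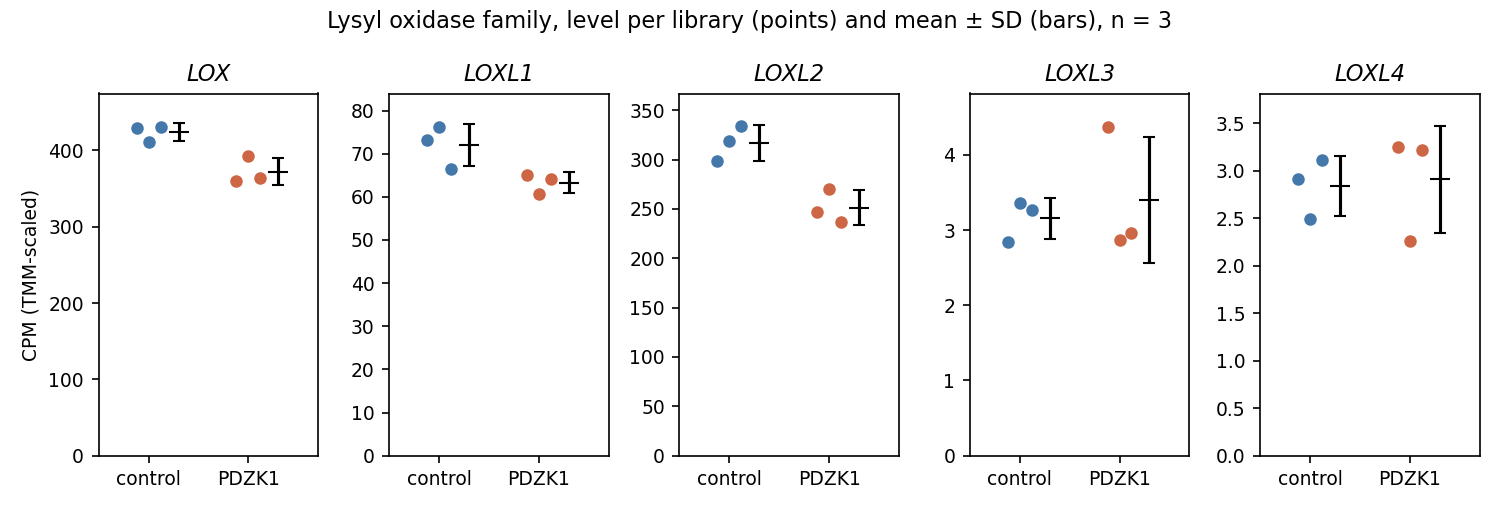
CPM of each member in every library (points; blue control, orange PDZK1) with the group mean ± SD beside them (black, n = 3), each panel on its own linear axis from 0. The PDZK1 points lie below all control points for LOX, LOXL1 and LOXL2 and overlap them for LOXL3 and LOXL4.

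LOX (ENSG00000113083, chromosome 5, 122063195 to 122078360, minus strand, GRCh38) is the founding member and crosslinks both collagen and elastin. Its CPM were 430, 411 and 431 in the controls and 360, 392 and 364 with PDZK1. Every PDZK1 library lay below every control library, with control replicate 2 and PDZK1 replicate 2 nearest to each other. The mean went from 424 ± 11.6 to 372 ± 17.6 CPM (SD, n = 3 each), a log2 fold change of -0.19 (SE 0.043, 95% interval -0.28 to -0.092, edgeR adjusted p = 0.0426). LOX thus fell by 12.2% (95% interval of the change -17.9% to -6.19%). In bulk RNA, fewer cells with the transcript and less of it per cell cannot be told apart. The adjusted p was close to the threshold, and the call was lost when control replicate 1 (0.130), control replicate 2 (0.101), PDZK1 replicate 1 (0.196) or PDZK1 replicate 3 (0.189) was left out in edgeR.

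LOXL1 (ENSG00000129038, chromosome 15, 73925989 to 73952137, plus strand) is the member tied to elastic fibres, which it helps to renew. Its CPM were 73.2, 76.2 and 66.5 in the controls and 65.2, 60.6 and 64.1 with PDZK1. Control replicate 3 was the lowest control and came close to PDZK1 replicate 1. The mean was 72.0 ± 4.94 CPM in the controls and 63.3 ± 2.40 with PDZK1 (SD, n = 3 each), with a log2 fold change of -0.19 (SE 0.059, 95% interval -0.32 to -0.054, edgeR adjusted p = 0.130). The unadjusted p was 0.0108, a level under 0.05 that 17.5% of all genes tested reached. Without control replicate 3, the library that stood apart on the second principal component, the log2 fold change was -0.24 and passed the threshold (adjusted p = 0.0201). LOXL1 passed in no other edgeR fit that left out a library. In those fits the log2 fold change was as small as -0.14 and the adjusted p as high as 0.362.

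LOXL2 (ENSG00000134013, chromosome 8, 23297189 to 23425328, minus strand) crosslinks type IV collagen of basement membranes. Its CPM were 298, 318 and 334 in the controls and 247, 271 and 236 with PDZK1. The highest PDZK1 library lay below the lowest control library, so the groups were apart. The mean fell from 317 ± 17.8 to 251 ± 17.6 CPM (SD, n = 3 each), a log2 fold change of -0.33 (SE 0.058, 95% interval -0.46 to -0.20, edgeR adjusted p = 0.0159). LOXL2 thus fell by 20.7% (95% interval of the change -27.5% to -13.1%). The call was lost without control replicate 2 (adjusted p = 0.0871), PDZK1 replicate 1 (0.0944) or PDZK1 replicate 3 (0.0722), with the log2 fold change between -0.39 and -0.29 whichever library was left out.

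LOX and LOXL2 were present at similar FPKM, and their ratio was examined as a description. The ratio of LOXL2 to LOX FPKM was 0.897, 1.04 and 1.01 in the controls and 0.891, 0.912 and 0.870 with PDZK1. Control replicate 1 lay among the PDZK1 libraries. A difference between the fold changes of both genes was not tested.

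LOXL3 (ENSG00000115318, chromosome 2, 74532414 to 74555690, minus strand), needed for cartilage and palate formation, had 92, 104 and 90 counts in the controls and 140, 94 and 94 with PDZK1. These correspond to 2.85, 3.37 and 3.26 CPM and to 4.37, 2.87 and 2.96 CPM. PDZK1 replicate 1 alone lay above the controls, and the other PDZK1 libraries lay within the control range. In edgeR the log2 fold change of LOXL3 was 0.11 (SE 0.21, 95% interval -0.36 to 0.57), far from the threshold (adjusted p = 0.848), and it was -0.11 without PDZK1 replicate 1. At this depth a difference between -22.0% and 48.7% was within the interval.

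PDZK1 replicate 1 also stood apart for LOXL3 in how its counts related to its FPKM. Dividing counts by FPKM and depth gives the transcript length that the FPKM imply. For LOXL3 this length was 2376 bases in PDZK1 replicate 1 and between 3297 and 3937 bases in the other libraries. This spread, 1.66-fold, was larger than that of 97.0% of the genes tested, whereas it was 1.01-fold to 1.04-fold for the other members. LOXL3 has 10 annotated transcripts, and its FPKM of 1.84 in that library, against 0.743 to 1.01 elsewhere, therefore reflects both more counts and a shorter assigned length.

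LOXL4 (ENSG00000138131, chromosome 10, 98247690 to 98268250, minus strand), which shares the domain layout of LOXL2 and LOXL3, had 94, 77 and 86 counts in the controls and 104, 74 and 102 with PDZK1. Its CPM were 2.91, 2.49 and 3.12 in the controls and 3.25, 2.26 and 3.22 with PDZK1, and the groups overlapped. In edgeR the log2 fold change of LOXL4 was 0.034 (SE 0.21, adjusted p = 0.959), with a 95% interval of -0.43 to 0.50 that spans -25.9% to 41.4%. The sign changed when control replicate 2 (-0.052), PDZK1 replicate 1 (-0.051) or PDZK1 replicate 3 (-0.045) was left out.

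**Figure D3:**
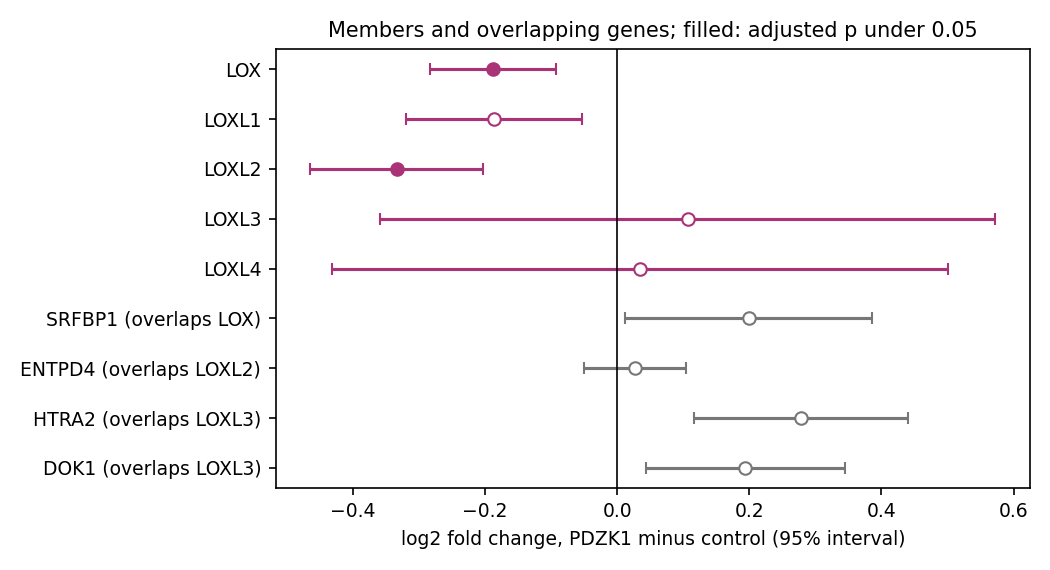
Log2 fold change of PDZK1 against control with its 95% interval (edgeR) for the 5 members and for the 4 listed genes that overlap them; filled points have an adjusted p under 0.05. LOX and LOXL2 are filled and negative, LOXL1 is negative and open, and no overlapping gene is filled.

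The overlapping genes were examined because the strandedness of the libraries is not given in the sources used here, so reads from overlapping exons on opposite strands may not be separable. The overlaps given are of whole gene spans, introns included, and the overlap of exons was not measured. SRFBP1 overlaps LOX on the opposite strand over 12376 bases. It had 15.9, 16.7 and 15.7 CPM in the controls and 17.6, 17.5 and 20.3 CPM with PDZK1 (log2 fold change 0.20, edgeR adjusted p = 0.255). ENTPD4 overlaps LOXL2 over 39546 bases on the same strand, where strandedness has no bearing. Its log2 fold change was 0.027 (edgeR adjusted p = 0.749). HTRA2 (0.28, adjusted p = 0.0697) and DOK1 (0.19, adjusted p = 0.163) overlap LOXL3 on the opposite strand over 935 and 6665 bases. The CPM of SRFBP1, HTRA2 and DOK1 were higher in all 3 PDZK1 libraries than in all controls, as were those of 11.6% of all genes tested. For SRFBP1 this was opposite to LOX, which it overlaps. For HTRA2 and DOK1 it was the same sign as that of LOXL3 (log2 fold change 0.11), whose groups overlapped. The part of shared reads in these values was not tested. None of SRFBP1, HTRA2 and DOK1 passed the threshold in edgeR (unadjusted p = 0.0397, 0.00347 and 0.0169). In DESeq2 HTRA2 passed it (adjusted p = 0.0484). The annotated transcripts LOXL1-AS1, AC090197.1 and AL139241.1, which overlap LOXL1, LOXL2 and LOXL4, were not analysed here.

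Neighbouring genes were read to see whether the members moved with their chromosome region. Among tested genes starting within 5 Mb of LOX, 19 had a median log2 fold change of 0.014, with 1 below LOX and 0 called by edgeR, DESeq2 or limma-voom (3 had an unadjusted p under 0.05 in edgeR). Around LOXL2 the median of 49 genes was -0.0058, with 1 below LOXL2, 0 called by edgeR (8 had an unadjusted p under 0.05) and 1 called lower by DESeq2. Around LOXL1 the median of 76 genes was 0.010, with 1 called lower and 4 below LOXL1. The medians around LOXL3 (62 genes) and LOXL4 (95 genes) were 0.018 and 0.023. The lower values of LOX, LOXL1 and LOXL2 were therefore not shared by most genes around them.

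The genes whose CPM profile over the 6 libraries was most like that of a member were listed for LOX, LOXL1 and LOXL2 by the root mean square distance between centred log2 CPM profiles. LOX was nearest to CDK5RAP2 (distance 0.023), COG4 (0.026) and WDR27 (0.026) among genes with a mean CPM of at least 5. LOXL1 was nearest to DLG1 (0.016), TM4SF1 (0.021) and FADS1 (0.026). LOXL2 was close to ENO1 (0.035) and CCNL2 (0.041), which both lie on chromosome 1 in regions where the median log2 fold change of tested neighbours was -0.23 and -0.22. LOX and LOXL2 were 0.094 apart, LOX and LOXL1 0.105, and LOXL1 and LOXL2 0.149. Among the 11099 genes compared, LOX took place 220 in likeness to LOXL2, and LOXL2 took place 2092 in likeness to LOX. The points share libraries and depth. The scarce LOXL3 was nearest to TRAF2 (0.077), SAMHD1 (0.078) and CLHC1 (0.079), and LOXL4 to INKA2 (0.069), FAM47E-STBD1 (0.074) and NOP2 (0.084).

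The genes that work with lysyl oxidases were described by 8 lists, holding 111 genes in all. Of these, 95 were tested, and 17 passed the threshold, 4 higher and 13 lower with PDZK1 (17.9%, against 3.83% of all genes tested). The lists were chosen with earlier results of these data known, so these shares are a description and no set test was run. The median log2 fold change of the 95 genes was -0.039, and that of all genes tested was -0.00025. The count depended on single libraries. It was 10 when control replicate 1 was left out, 7 for control replicate 2, 7 for PDZK1 replicate 1 and 9 for PDZK1 replicate 3. Of the genes named below, COL5A2, EMILIN2, FBN2, LTBP3, THBS1 and EPAS1 passed the threshold in every alternative in which they were tested, and the other calls were lost in at least 1.

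**Figure D4:**
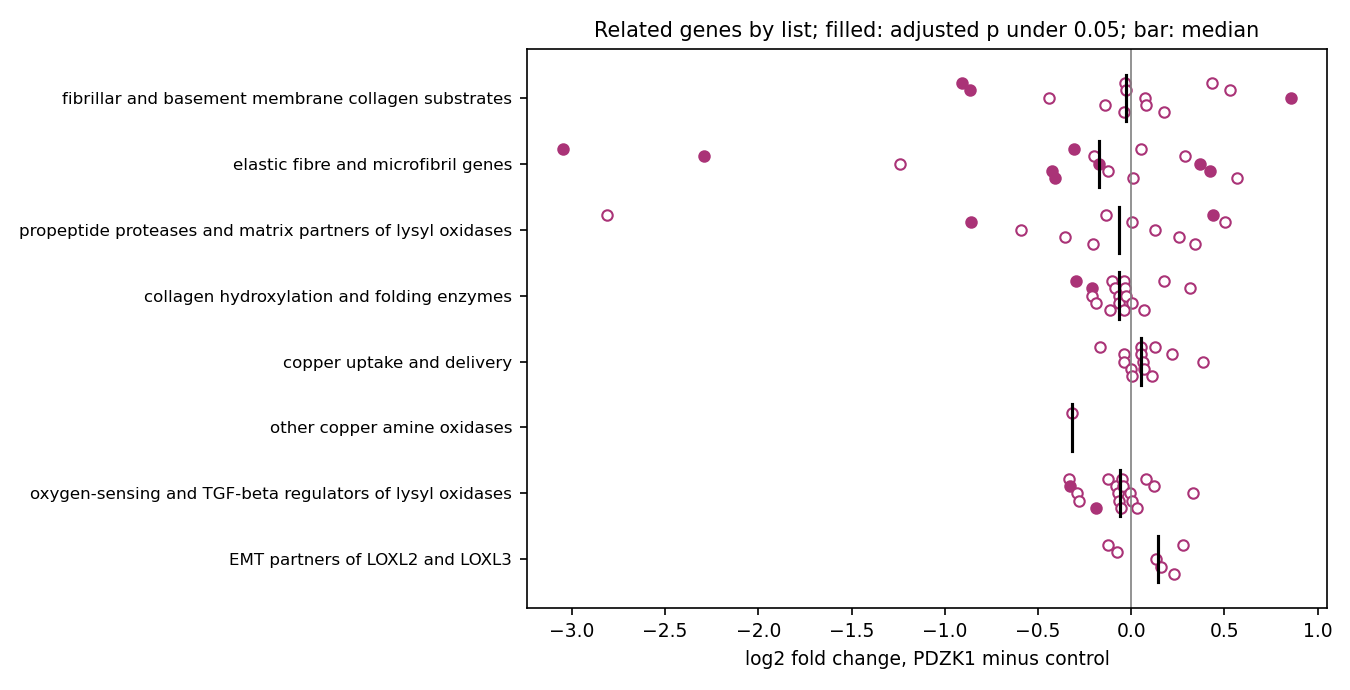
Log2 fold change of PDZK1 against control (x axis) for each tested gene of the 8 lists (rows), with filled points for an adjusted p under 0.05 in edgeR and a bar at the median of each list. Elastic fibre and microfibril genes hold 8 of the 17 filled points, from -3.05 to 0.42, and the copper list holds none.

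Among the collagen substrates, 13 of 17 genes were tested, 1 rose and 2 fell, with a median of -0.030. COL5A2, a chain of type V collagen, fell from 73.4 ± 1.67 to 39.1 ± 1.74 CPM (SD, n = 3 each, log2 fold change -0.91, edgeR adjusted p = 8.14e-05). Its CPM were 71.6, 74.9 and 73.6 in the controls and 40.8, 39.3 and 37.3 with PDZK1, with no overlap. COL4A6, a type IV chain, also fell (-0.87, adjusted p = 0.0267), and COL27A1, a fibrillar collagen of cartilage, rose (0.86, adjusted p = 0.00992). COL5A1, another chain of type V collagen, is named after its values were seen. It had 13.7, 12.2 and 10.9 CPM in the controls and 17.9, 14.4 and 17.5 with PDZK1. COL5A1 was thus higher with no overlap, opposite to COL5A2, but did not pass (0.43, edgeR adjusted p = 0.0757). COL4A1, the main basement membrane chain that LOXL2 acts on, had 268, 258 and 189 CPM in the controls and 280, 244 and 285 with PDZK1 (0.18, adjusted p = 0.643). COL1A1, a chain of type I collagen, was higher without overlap but did not pass (0.53, adjusted p = 0.109). Its partner COL1A2 had 0 counts in all 6 libraries, and COL3A1 had at most 8 counts.

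The elastic fibre and microfibril list held the most calls. Of 18 genes 15 were tested, 2 rose and 6 fell, and the median was -0.17. FBN1, the main microfibril scaffold, had 295, 274 and 247 CPM in the controls and 213, 187 and 214 with PDZK1, a log2 fold change of -0.41 (edgeR adjusted p = 0.0351). LTBP4, which binds latent TGF-beta and helps to assemble elastic fibres, fell from 31.8 ± 0.345 to 23.6 ± 0.268 CPM (SD, n = 3 each, -0.43, adjusted p = 0.00240). The relatives LTBP3 (0.42, adjusted p = 3.26e-04) and LTBP1 (0.37, adjusted p = 0.0370) rose, so this gene family moved in both directions.

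The largest falls in that list were in scarce transcripts. EMILIN2, an elastin interface glycoprotein, had 58, 49 and 38 counts in the controls and 8, 13 and 10 with PDZK1 (-2.29, adjusted p = 0.00484). FBLN1, a fibulin of elastic fibres, had 25, 35 and 35 counts in the controls and 0, 7 and 5 with PDZK1 (-3.05, adjusted p = 0.0322). The other falls, FBN2 (-0.31, adjusted p = 8.95e-04) and EFEMP1 (-0.17, adjusted p = 0.0303), were of abundant genes and are named after their values were seen. ELN, the elastin substrate itself, was scarce, with 40, 30 and 22 counts in the controls and 21, 16 and 4 with PDZK1. The ELN groups did not overlap, but its log2 fold change of -1.24 did not pass (adjusted p = 0.233). FBLN5, which tethers LOXL1 to elastic fibres, was higher without overlap but did not pass (0.57, edgeR adjusted p = 0.0797). EFEMP2, which brings LOX to elastin, was lower without overlap and did not pass either (-0.13, adjusted p = 0.192).

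Among propeptide proteases and matrix partners, 12 of 16 genes were tested, 1 rose and 1 fell, with a median of -0.066. BMP1, the protease that releases mature LOX, had 110, 103 and 94.8 CPM in the controls and 108, 112 and 114 with PDZK1 (0.12, edgeR adjusted p = 0.256). TLL1, a related protease, fell from 6.15 ± 1.43 to 3.39 ± 0.402 CPM (SD, n = 3 each, -0.86, adjusted p = 0.0419). THBS1, the matricellular protein thrombospondin, rose from 289 ± 16.0 to 391 ± 17.1 CPM (0.44, adjusted p = 0.00138). Fibronectin, encoded by FN1, had 748, 724 and 575 CPM in the controls and 1027, 834 and 1043 with PDZK1. FN1 was thus higher with no overlap but did not pass (0.50, adjusted p = 0.141). POSTN, encoding periostin, which promotes cleavage of the LOX propeptide, had 43, 30 and 53 counts in the controls and 8, 11 and 0 with PDZK1 (-2.81, adjusted p = 0.0704).

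The enzymes that prepare collagen for crosslinking were mostly on the lower side. All 17 collagen hydroxylation and folding genes were tested, and 13 had a negative log2 fold change, as had 6837 of all 13645 genes tested. The median of the list was -0.064. Without overlap of CPM, 6 genes were lower and 2 higher, against 12.3% and 11.6% of all genes tested. In edgeR 2 passed, both lower, whereas DESeq2 called 3, all lower, and limma-voom 0. P4HA1, a catalytic subunit of prolyl hydroxylase, had 103, 103 and 104 CPM in the controls and 85.6, 91.0 and 75.5 with PDZK1 (-0.30, edgeR adjusted p = 0.0322). PLOD1, which hydroxylates collagen lysines, fell from 118 ± 4.59 to 102 ± 4.89 CPM (SD, n = 3 each, -0.21, adjusted p = 0.0360). PLOD1 lies on chromosome 1 (11934205 to 11975538), where 67 of 71 tested neighbours within 5 Mb were also lower, with a median of -0.23. PLOD2, which hydroxylates the lysines of collagen telopeptides, was also at -0.21 and did not pass (adjusted p = 0.0575). COLGALT2 (0.31, edgeR adjusted p = 0.141) and P3H2 (0.18, adjusted p = 0.195) were higher without overlap. Both are named after their values were seen.

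Copper supply showed no call. All 13 genes of copper uptake and delivery were tested, and 0 passed in edgeR, DESeq2 or limma-voom (1 had an unadjusted p under 0.05 in edgeR). Their median log2 fold change was 0.053. SLC31A1, the copper importer, was at -0.037 (95% interval -0.14 to 0.069). ATP7A, the pump that loads copper into secreted enzymes, was at 0.11 (95% interval -0.093 to 0.32) on counts and between -0.027 and -0.019 in the fits on FPKM. Of the 3 other copper amine oxidases, AOC2 was tested and did not pass (-0.32, adjusted p = 0.730).

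Of the 18 oxygen-sensing and TGF-beta regulators, all tested, 2 passed, both lower, with a median of -0.058. EPAS1, encoding the hypoxia-inducible factor HIF-2 alpha, had 264, 260 and 270 CPM in the controls and 209, 216 and 207 with PDZK1 (-0.33, edgeR adjusted p = 8.95e-04). EGLN1, an oxygen-dependent hydroxylase that marks these factors for degradation, fell from 106 ± 3.26 to 93.3 ± 3.01 CPM (SD, n = 3 each, -0.19, adjusted p = 0.0364). HIF1A was at -0.073 (adjusted p = 0.404), and TGFB1, a growth factor known to induce LOX, was at -0.28 (adjusted p = 0.136).

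The promoter of LOX is shown because LOX is a known target of hypoxia-inducible factors, whose response element has the core ACGTG or GCGTG. The 250 bases before the RefSeq start of LOX (GRCh38.p14, chr5:122078260-122078509, minus strand) are given 5′ to 3′, with each ACGTG, or CACGT where it is read on the other strand, in capitals. The same window of LOXL1 (chr15:73926212-73926461, plus strand) holds neither core.
LOX: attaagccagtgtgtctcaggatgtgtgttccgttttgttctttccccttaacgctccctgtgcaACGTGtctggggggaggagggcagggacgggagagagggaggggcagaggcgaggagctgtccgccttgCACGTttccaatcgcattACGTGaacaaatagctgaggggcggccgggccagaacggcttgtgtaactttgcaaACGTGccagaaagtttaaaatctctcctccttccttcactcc
LOXL1: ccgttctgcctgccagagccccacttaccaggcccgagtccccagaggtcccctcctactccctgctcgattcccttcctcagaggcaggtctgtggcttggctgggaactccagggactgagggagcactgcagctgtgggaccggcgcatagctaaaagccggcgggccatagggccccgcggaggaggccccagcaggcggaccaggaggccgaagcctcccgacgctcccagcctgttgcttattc
LOX held ACGTG 4 times and GCGTG 0 times. Of 34788 promoter windows of this length, 18.5% held ACGTG on either strand at least once and 0.658% held it at least 4 times. ACGTG or GCGTG was found in 43.1% of the windows. The windows of LOXL3 and LOXL4 also held neither core, and the promoter of LOXL2 was not analysed here. A match describes the letters and not binding, and no factor was measured at these promoters.

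Among partners in epithelial-mesenchymal transition, 6 of 9 genes were tested, with a median of 0.14. In edgeR 0 passed and 2 had an unadjusted p under 0.05, and DESeq2 called 1, higher. SNAI1, the repressor that LOXL2 and LOXL3 are known to bind, had 19, 6 and 10 counts in the controls and 12, 19 and 14 with PDZK1 (0.28, edgeR adjusted p = 0.825, and -0.039 without control replicate 2). CDH1, a gene that SNAI1 represses, had at most 10 counts in any library and was not tested.

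The calls on LOX and LOXL2 were set against 20 alternatives, of which 3 were fits on the deposited FPKM and 6 left out a library of counts. In these the log2 fold change stayed between -0.23 and -0.16 for LOX, between -0.24 and -0.14 for LOXL1 and between -0.39 and -0.29 for LOXL2. LOX passed the threshold in 8 of the 20, LOXL2 in 13 and LOXL1 in 1, so these members kept their direction in all 20 and their calls in some. Their CPM did not overlap between the groups, so leaving out a library could hardly reverse the sign.

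**Figure D5:**
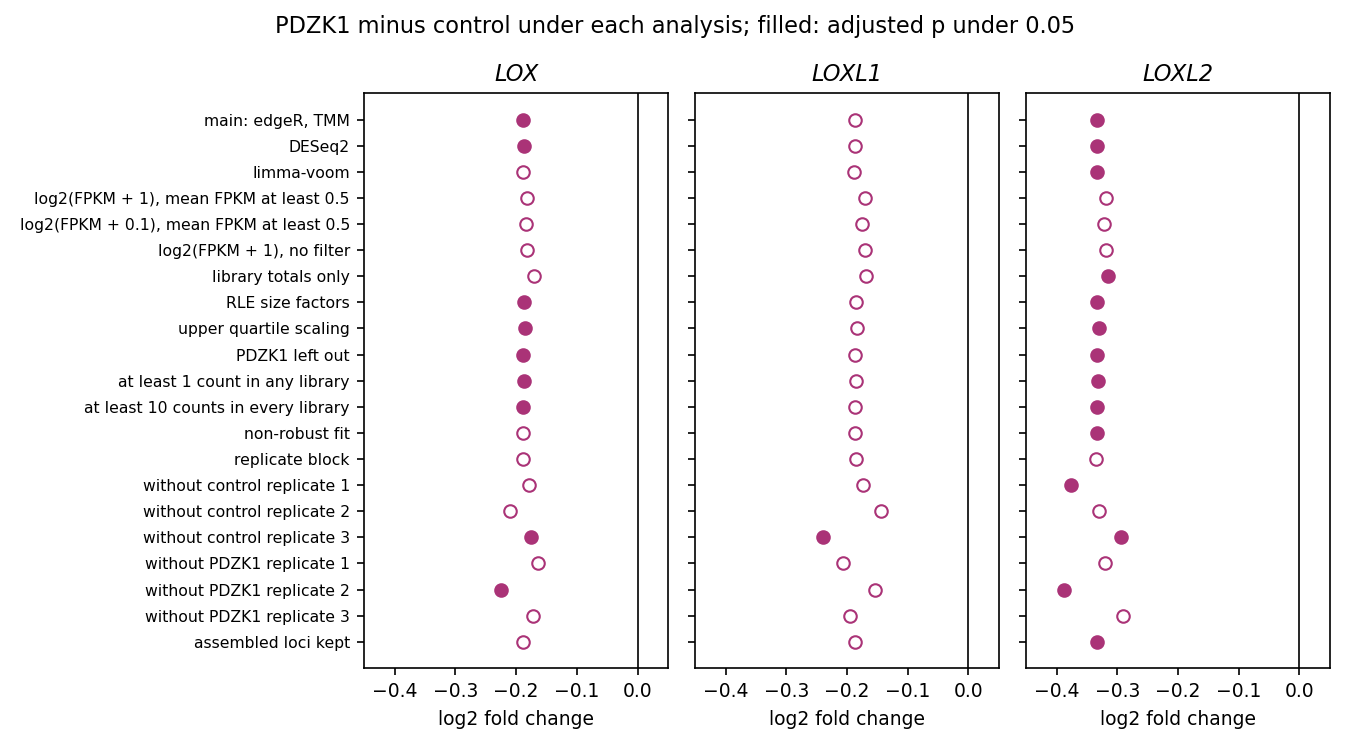
Log2 fold change of LOX, LOXL1 and LOXL2 (x axis) in the reported fit (top row) and 20 alternatives (rows); filled points have an adjusted p under 0.05. All points lie left of 0, LOX is filled in 8 alternatives, LOXL1 in 1 and LOXL2 in 13.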

How the data were processed

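RNA-seq of 6 ARPE-19 libraries (3 control, 3 PDZK1, grouped by their labels) was analysed from 2 tables. The estimated counts were deposited by the authors as whole numbers per gene, unscaled. The FPKM, scaled by transcript length and library, were also deposited by the authors. Per the labels' processing notes, fastp 0.20.1, HISAT2 2.2.1 and GRCh38 were used; the counting program, annotation and strandedness are not given in the sources used here. Each table also holds 3 columns that match none of the samples and were not used. Assembled loci (853 entries, 0.519% to 0.536% of counts) were left out of the main test.

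Genes passing filterByExpr (13645) were scaled by TMM and tested with the robust quasi-likelihood test of edgeR 4.0.16 (R 4.3.3), without covariates, with Benjamini-Hochberg adjustment over all genes and a threshold of 0.05. CPM use TMM-scaled library sizes. The script was tested on simulated data. The changes simulated were larger than those of LOX and LOXL2, so changes of their size were not covered. Standard errors and 95% intervals were derived from the log2 fold change and the F statistic of this test. They include the variation between libraries. Alternatives used DESeq2 1.42.0, limma 3.58.1 (voom on counts, and log2 FPKM after adding 1 or 0.1, with a variance trend), other scalings and count filters, a replicate block and each library left out in turn. Gene positions and coding sequences are those of GENCODE release 29, and promoters those of RefSeq (GRCh38.p14).

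The members, lists and rule for named genes were chosen with earlier results of these data known. The rule names PDZK1, the members, genes overlapping them, 18 preset partners, up to 4 genes per list and direction past the threshold by size of change, and the 3 genes nearest in profile to each member. Some genes that the rule or the marker lists name are not reported here.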

Additional observations from a re-analysis of the deposited data

How the results depend on the processing

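The direction of LOX, LOXL1 and LOXL2 held in all 20 alternatives. These reuse the same 6 libraries, whose CPM did not overlap between the groups for these genes, so a reversal was hardly possible. The number of members called varied. It was 2 with edgeR, as with DESeq2, RLE or upper quartile scaling, PDZK1 left out and both other count filters. It was 1 (LOXL2) with limma-voom, with library totals only, with the non-robust fit and with assembled loci kept, the last chosen after seeing the data, and 0 in the 3 fits on FPKM (limma; 3 members at an unadjusted p under 0.05 in each), and the cause was not tested. Leaving out 1 library gave 0 to 3 members, 7 to 18 related genes against 17, and 181 to 875 of all genes against 522, with fewer samples in each such fit. Related genes past the threshold were 11 with limma-voom, 5, 5 and 8 in the fits on FPKM (pseudocount 1, 0.1, and 1 with no filter) and 24 with DESeq2, which called 793 genes in all. The fits on FPKM called 184, 185 and 185 genes in all. With library totals only, 241 of 517 calls were higher, against 193 of 522, and the median of all genes shifted by 0.018.

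Same-numbered libraries did not deviate together (correlations -0.046, -0.056 and -0.143), and correlations of the other pairs ran from -0.078 to 0.129. Deviations from the mean of only 3 libraries are not independent. Whether the numbers pair the samples is thus not settled. The replicate block left 0 members past the threshold in edgeR (3 at an unadjusted p under 0.05, LOX adjusted p = 0.169, LOXL2 0.0571), 7 related genes and 163 genes in all.

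Reversed signs, all far from the threshold, were those of LOXL3 without PDZK1 replicate 1 (-0.11, up to 0.22 without another library), LOXL4 without control replicate 2, PDZK1 replicate 1 or PDZK1 replicate 3 (-0.052, -0.051 and -0.045, up to 0.19), SNAI1 without control replicate 2 (-0.039, up to 0.75) and ATP7A in the fits on FPKM (-0.019, -0.027 and -0.019). By counts per kilobase LOXL3 took place 5 and LOXL4 place 4 in the order, in reverse of FPKM, and LOX was above LOXL2 in 6 of 6 libraries, against 4 by FPKM. Depth limits LOXL3 and LOXL4, which had 74 to 140 counts per library.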
